A study of Homo sapiens with 5 samples.

Results

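The small nucleolar RNA (snoRNA) host long non-coding RNAs GAS5, ZFAS1, SNHG1, SNHG5, SNHG6, SNHG7, SNHG8, SNHG12, SNHG15 and SNHG16 were followed in DAOY cells, an established human medulloblastoma line of the sonic hedgehog (SHH) subgroup. They were chosen by name from general knowledge, with earlier results of these data known, and make up 10 of the 60504 genes in the deposited table. The cells were transfected for 48 h with siRNA at 20 nM, either a non-targeting control in 2 sequenced libraries (si-NC) or siRNA directed at circ_63706 in the other 3 (si-circ_63706). circ_63706 is a circular RNA made from exons of PCNT, which encodes the centrosome protein pericentrin. All cells were of the same line, and cells of both groups received siRNA and the transfection reagent Lipofectamine RNAiMAX. The study describes a pair of siRNAs against circ_63706, and which one each library received is not given in the sources used here. Whether the replicates came from separate cultures is not given either, so the p-values measure only the spread between these libraries, which may be technical.

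snoRNAs are short nuclear RNAs that guide chemical changes to ribosomal RNA. Those with C and D boxes guide 2′-O-methylation, and those with H and ACA boxes guide the change of uridine to pseudouridine. Most human snoRNAs are cut from the introns of longer genes, and in the genes described here the spliced exons are left as a long non-coding RNA. Many of these genes begin their transcripts with a C and a run of pyrimidines, the 5′ terminal oligopyrimidine (TOP) start shared by messages for ribosomal proteins and translation factors. Their spliced RNAs are often bound by ribosomes and removed by nonsense-mediated decay (NMD), and GAS5 is named for its accumulation in growth-arrested cells.

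The starts of the host RNAs are shown because the TOP start is the sequence feature that ties these genes to the translation machinery. The first 30 bases of 1 GENCODE 29 transcript per gene, taken from those with such a start where the gene has any, are printed 5′ to 3′ on the transcript strand, with a C followed by at least 4 pyrimidines in capitals, and with none in capitals where the first base does not open such a run.
GAS5: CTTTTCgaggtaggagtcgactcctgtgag
SNHG16: CTTTTCgaggtcggccgcgtggctggaaga
SNHG5: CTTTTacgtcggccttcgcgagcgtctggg
ZFAS1: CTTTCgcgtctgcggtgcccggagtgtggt
SNHG8: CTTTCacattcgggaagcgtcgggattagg
SNHG12: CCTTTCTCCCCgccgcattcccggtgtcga
SNHG1: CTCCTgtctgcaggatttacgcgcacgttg
SNHG7: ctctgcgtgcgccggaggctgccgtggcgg
SNHG15: ccgccatcctgggccccacgtgttgcctga
At least 1 annotated transcript with such a start was found for 8 of the 10 genes, the exceptions being SNHG7 and SNHG15. Among the 12642 tested genes with a GENCODE 29 transcript the share was 17.4%, and it was 21.1% among the 9781 of them with 4 or more transcripts. Counted over transcripts, 23 of 136 (16.9%) had this start, beside 2.65% of the 115494 transcripts of all tested genes. The printed starts of GAS5 and SNHG16 shared their first 11 bases, cttttcgaggt, and were annotated for 6 of 29 GAS5 and 2 of 8 SNHG16 transcripts. The GAS5 start lies at chr1:173867960-173867989 on the minus strand and that of SNHG16 at chr17:76557769-76557798 on the plus strand (GRCh38). The other printed starts with capitals were annotated for 3 of 23 SNHG5, 2 of 10 ZFAS1, 2 of 17 SNHG12, 1 of 5 SNHG8 and 1 of 25 SNHG1 transcripts. The SNHG1 start lies at chr11:62855450-62855479 on the minus strand, downstream of SNORD25, a snoRNA carried by the same gene. An annotated start is not a measured one, and these libraries do not show which start was used.

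Values are TPM (transcripts per 1000000), a length-corrected share of the RNA in a library. Because the deposited values are not counts, sequencing depth and counting error are unknown. Between 29253 and 29748 genes were above 0 in the si-NC libraries and between 33905 and 34347 in the si-circ_63706 libraries. The gene RN7SL1 alone held 25.6% and 25.4% of TPM with si-NC and 28.1%, 29.2% and 29.1% with si-circ_63706. The protein-coding share of TPM was 29.02% in each si-NC library and 25.2% to 26.9% in the si-circ_63706 libraries. Because TPM is a share of a total, such a shift also moves the other genes, and over all tested genes the median of the log2 fold changes was −0.16. Fold changes are therefore given on the deposited scale and, for the host RNAs and the other genes tested by name, also after centring, that is after subtracting the median log2 ratio of a library from its values, which set the median of all genes to 0.00. PCNT had 9.96 and 10.38 TPM with si-NC against 8.80, 7.99 and 7.54 TPM with si-circ_63706 (fitted log2 fold change −0.30, limma adjusted p = 0.0190, and −0.14 with adjusted p = 0.279 after centring). These values do not separate the circular from the linear RNA, so they do not check the knockdown of circ_63706. Of 8 SHH medulloblastoma markers 5 had a mean of at least 1 TPM (GLI2, PTCH1, HHIP, SFRP1 and BOC), while GLI1, MYCN and ATOH1 were below 1 TPM. The markers of leukocytes, endothelium, astrocytes, oligodendrocytes and hepatocytes (PTPRC, PECAM1, GFAP, MBP and ALB) all had means below 1 TPM. The highest of them was MBP at 0.39 TPM, near the GLI1 level.

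All 10 host RNAs were expressed well above the minimum mean of 1 TPM that a gene needed to be tested, and ranked between 12 and 44 by mean TPM among the 14844 genes with a long non-coding biotype, of which 711 reached 1 TPM. GAS5 was the most abundant, with a mean over the 5 libraries of 113 TPM and a range of 107 to 120 TPM. Next came SNHG5 (mean 101 TPM), SNHG6 (84.4 TPM), SNHG1 (69.7 TPM), ZFAS1 (59.7 TPM) and SNHG16 (48.9 TPM). A lower tier was formed by SNHG8 (28.6 TPM), SNHG12 (21.8 TPM), SNHG7 (16.4 TPM) and SNHG15 (14.0 TPM). Each gene was above the next in 5 of 5 libraries. Within a group the ranges of neighbours in this order overlapped for GAS5 and SNHG5 with si-NC, and for no other pair in either group. TPM is per length, so levels can be compared between genes, within the limits of the transcript models used for counting.

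**Figure D1:**
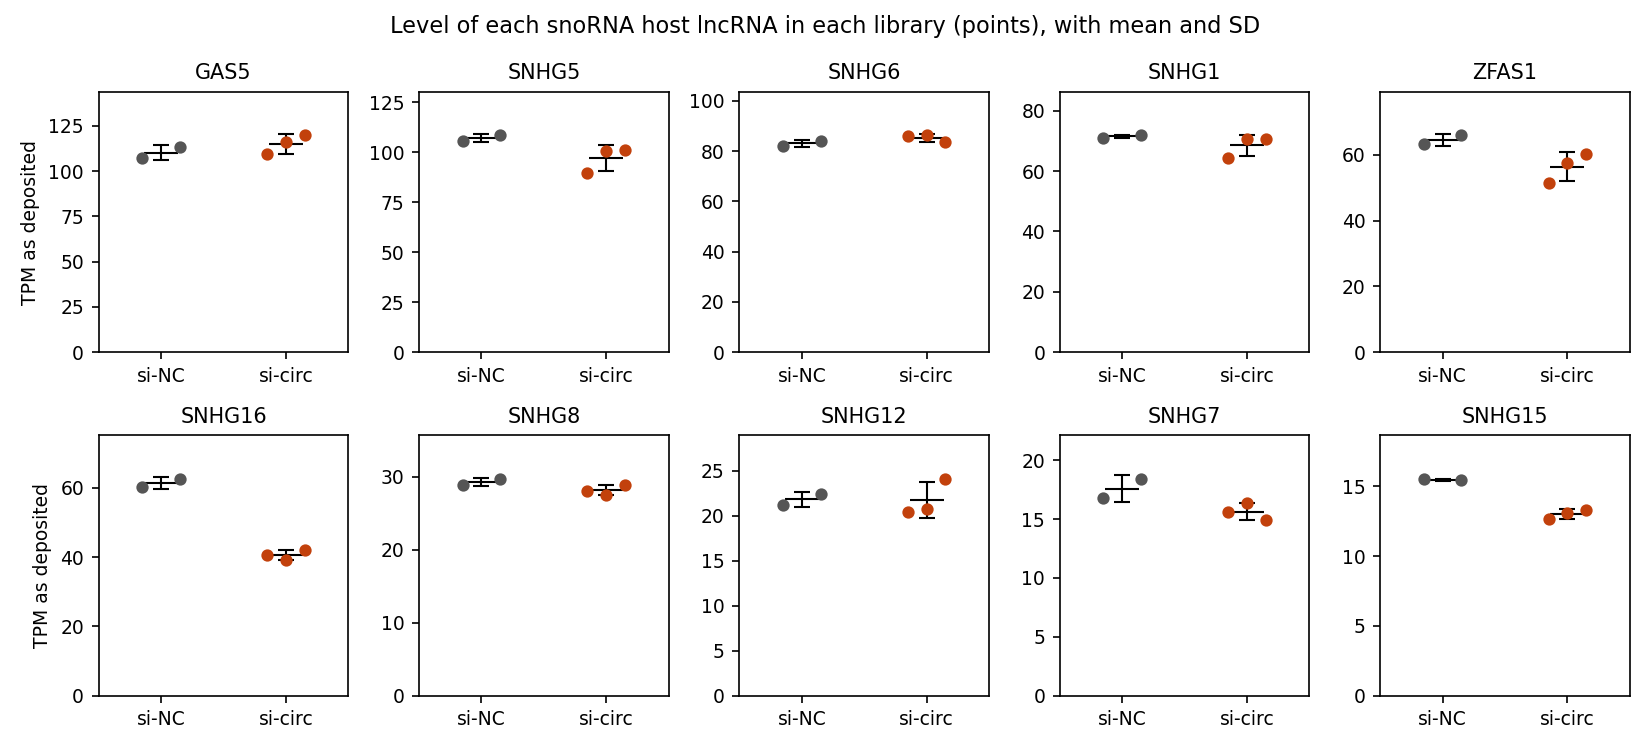
Each panel plots 1 host RNA, with TPM as deposited on the y axis from 0 and the group on the x axis (si-circ stands for si-circ_63706). Points are libraries, the short bar is the mean and the whiskers are 1 SD. The SNHG16 points fall from about the level of ZFAS1 to between 39.17 and 42.00 TPM, and the SNHG15 groups also lie apart, while those of GAS5, SNHG6, SNHG8 and SNHG12 overlap.

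The comparison of si-circ_63706 with si-NC asked what loss of the circular RNA changed in these cells. Among the host RNAs, SNHG16 fell to 66.2% of its si-NC level and SNHG15, whose call did not hold after centring, to 84.1%, while the other 8 did not pass the test. None was called higher on the deposited scale. By limma over all 12710 tested genes, 2 of 10 host RNAs were thus called lower and 0 higher past the adjusted threshold of 0.05, beside 35.4% of all tested genes called lower and 4.16% called higher, and 4 of 10 had an unadjusted p under 0.05. Every si-circ_63706 library was below every si-NC library for 6 of the 10, beside 55.2% of all tested genes, and the reverse held for 0, beside 8.93%. The median log2 fold change of the 10 was −0.10, against −0.16 for all tested genes. The share called lower was thus under its background, and the share without overlap was near it. After centring, 2 of 10 were called higher (GAS5 and SNHG6) and 1 lower (SNHG16), beside 13.1% and 13.7% of all tested genes, and the median of the 10 was 0.06. The call of SNHG16 was the only one made under both scalings.

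**Figure D2:**
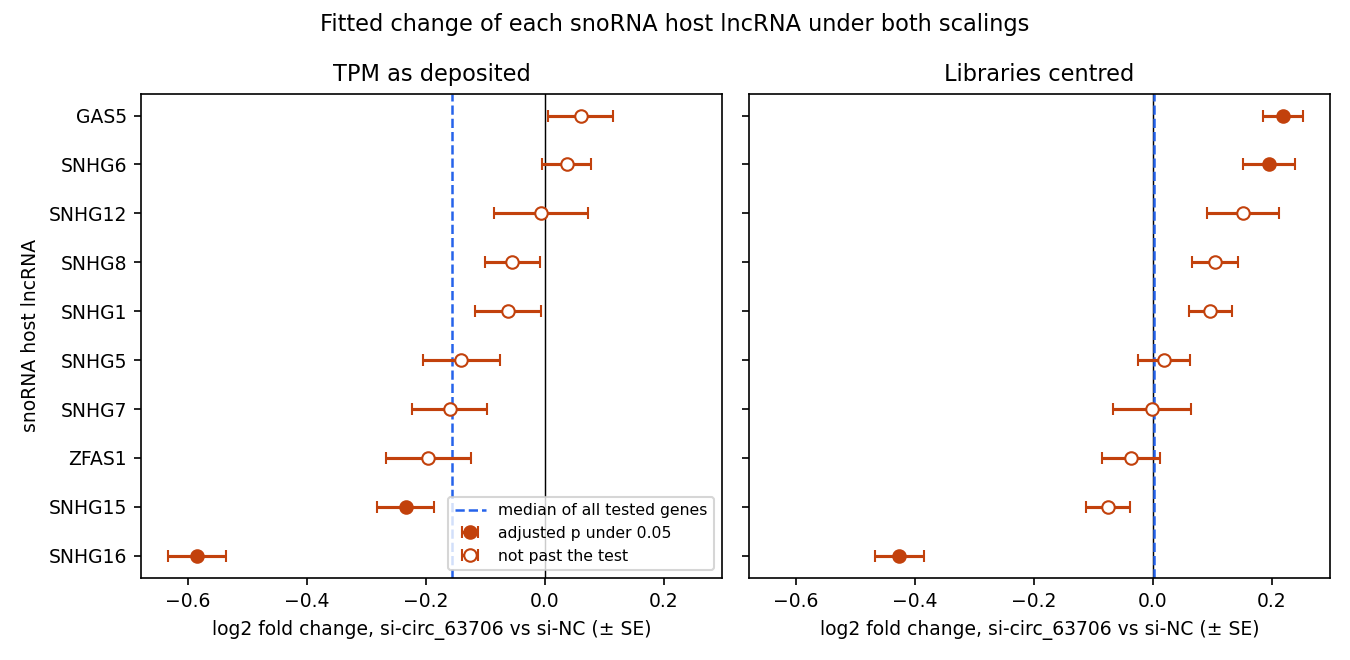
Fitted log2 fold change of si-circ_63706 against si-NC on log2(TPM + 1) for each host RNA (x axis, whiskers 1 SE), on the deposited scale (left) and with libraries centred (right). Filled points passed an adjusted p of 0.05 and the dashed line is the median of all tested genes, −0.16 on the left. SNHG16 lies far to the left in both panels, while GAS5 and SNHG6 are filled on the right only and SNHG15 on the left only.

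SNHG16 (ENSG00000163597) lies at chr17:76557766-76565348 on the plus strand and carries the C/D box snoRNAs SNORD1A, SNORD1B and SNORD1C. Its TPM was 60.18 and 62.63 with si-NC and 40.72, 39.17 and 42.00 with si-circ_63706. All 3 si-circ_63706 libraries lay close together and well below both si-NC libraries. The means were 61.4 ± 1.73 TPM (SD, n = 2) and 40.6 ± 1.42 TPM (SD, n = 3), with a fitted log2 fold change of −0.58 (SE 0.0489, limma adjusted p = 0.00109). After centring it was −0.43 (adjusted p = 0.00242), so SNHG16 also fell relative to the typical gene. SNHG16 was called lower under all 13 alternative settings, with log2 fold changes from −0.61 to −0.43 and adjusted p from 0.000263 to 0.0168 in limma.

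SNHG16 was also set against the other hosts within a library, where scaling cancels. The ratios and shares below use the same values that singled out SNHG16, so they describe its change and are not a further test of it. Its ratio to each of the 9 others was lower in all 3 si-circ_63706 libraries than in both si-NC libraries. The mean ratio with si-circ_63706 was between 63.5% (to GAS5) and 78.7% (to SNHG15) of that with si-NC, and 74.5% for SNHG7, the host nearest to the typical gene after centring. The ratio of SNHG16 to GAS5 was 0.560 and 0.554 with si-NC and 0.373, 0.338 and 0.351 with si-circ_63706. Relative to si-NC, the ratios to GAS5 (63.5%) and SNHG6 (64.5%) were the lowest, and these are the 2 hosts called higher after centring. To SNHG7 the ratio was 3.59 and 3.40 with si-NC and 2.61, 2.40 and 2.81 with si-circ_63706. A ratio shows an unequal change of a pair of RNAs and not which of them moved. SNHG16 gave 10.5% and 10.6% of the summed TPM of the 10 host RNAs with si-NC and 7.86%, 7.15% and 7.52% with si-circ_63706. The GAS5 share of the same sum was 18.8% and 19.1% with si-NC and 21.1%, 21.2% and 21.4% with si-circ_63706. The sum itself had means of 582 ± 14.2 TPM (SD, n = 2) in the control and 541 ± 21.1 TPM (SD, n = 3) in the si-circ_63706 libraries, which is 93.0% of the control. Without SNHG16 it was 511.69 and 529.30 TPM with si-NC against 477.14, 508.70 and 516.53 TPM with si-circ_63706, and the groups then overlapped.

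**Figure D3:**
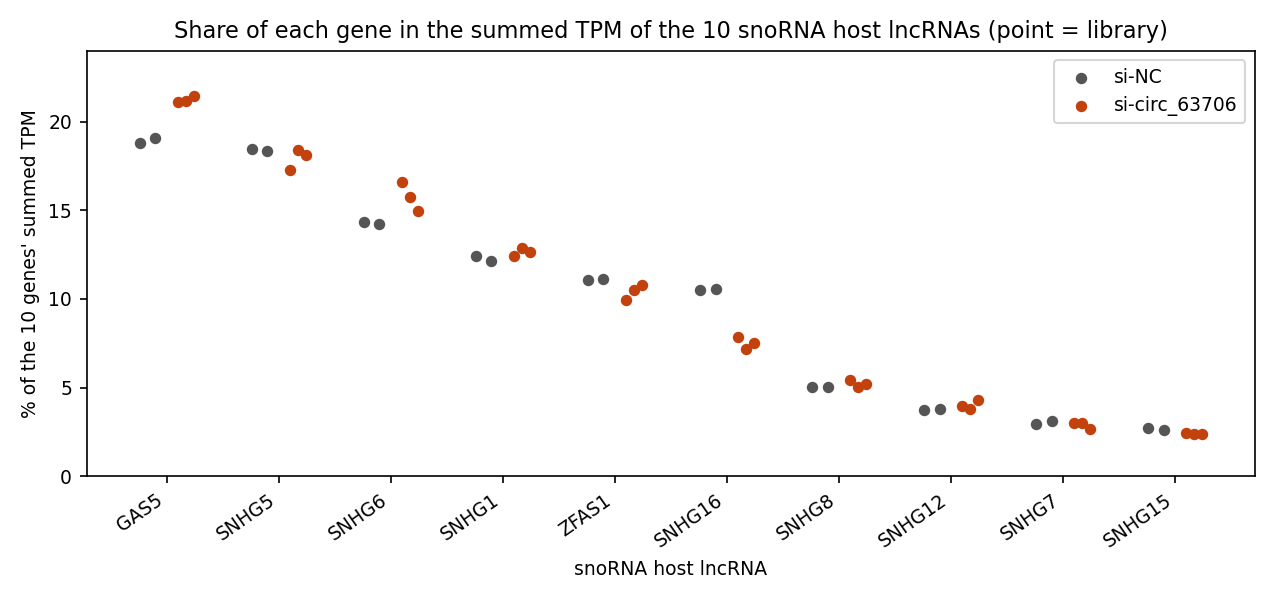
Share of each host RNA (x axis, ordered by mean TPM) in the summed TPM of the 10 host RNAs (y axis, percent, from 0), with 1 point per library. SNHG16 drops from 10.5% and 10.6% with si-NC to between 7.15% and 7.86% with si-circ_63706, and the GAS5 points are higher with si-circ_63706.

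SNHG15 (ENSG00000232956, chr7:44983023-44986961, minus strand), the host of the H/ACA snoRNA SNORA9, was the other gene called lower. It had 15.53 and 15.43 TPM with si-NC against 12.66, 13.07 and 13.33 TPM with si-circ_63706. The groups did not overlap, and the means were 15.5 ± 0.0707 TPM (SD, n = 2) and 13.0 ± 0.338 TPM (SD, n = 3). The log2 fold change was −0.23 (SE 0.0481, limma adjusted p = 0.0115) on the deposited scale and −0.07 (adjusted p = 0.187) after centring, where the call was lost. It was also lost without si-NC replicate 1 (adjusted p = 0.0767) and without si-NC replicate 2 (adjusted p = 0.0687). SNHG15 is 1 of the 2 host RNAs with no annotated TOP start.

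ZFAS1, SNHG5 and SNHG7 were lower in every si-circ_63706 library but did not pass the test. ZFAS1 (ENSG00000177410, chr20:49278178-49295738, plus strand), which starts beside the oppositely transcribed gene ZNFX1 and carries 3 C/D box snoRNAs of the SNORD12 family, had 63.25 and 65.93 TPM with si-NC against 51.53, 57.41 and 60.19 TPM with si-circ_63706. The highest si-circ_63706 library was below the lowest si-NC library. Its log2 fold change was −0.20 (SE 0.0709, limma adjusted p = 0.0687), and −0.04 (adjusted p = 0.606) after centring. Without si-circ_63706 replicate 3 ZFAS1 was called lower (log2 fold change −0.24, adjusted p = 0.0393), and likewise with a minimum mean of 5 TPM (adjusted p = 0.0478).

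SNHG5 (ENSG00000203875, chr6:85660950-85678748, minus strand), the host of the C/D box snoRNA SNORD50B, had 105.51 and 108.46 TPM with si-NC against 89.39, 100.74 and 101.27 TPM with si-circ_63706. Replicate 1 of si-circ_63706 was the lowest by a wide margin. Its log2 fold change was −0.14 (SE 0.0646, limma adjusted p = 0.128), and 0.02 (adjusted p = 0.783) after centring. SNHG7 (ENSG00000233016, chr9:136721366-136728184, minus strand), which holds the H/ACA snoRNAs of the SNORA17 family, had 16.76 and 18.42 TPM with si-NC against 15.63, 16.33 and 14.94 TPM with si-circ_63706. Its groups were separated by less than the gap between the si-NC libraries. The log2 fold change of SNHG7 was −0.16 (SE 0.0627, limma adjusted p = 0.0857) and moved to −0.00 (adjusted p = 0.991) after centring, the same as the typical gene.

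GAS5 and SNHG6 were the hosts with a fitted change above 0 on the deposited scale. GAS5 (ENSG00000234741, chr1:173863900-173868882, minus strand) had 107.37 and 113.02 TPM with si-NC against 109.21, 116.00 and 119.72 TPM with si-circ_63706. The si-NC replicate 2 lay above the lowest si-circ_63706 library, so the groups overlapped. The log2 fold change was 0.06 (SE 0.0543, limma adjusted p = 0.409) on the deposited scale and 0.22 (adjusted p = 0.00783) after centring, so GAS5 rose relative to the typical gene without a called change of its own TPM. SNHG6 (ENSG00000245910, chr8:66921684-66926398, minus strand), the host of the C/D box snoRNA SNORD87, had 82.05 and 84.14 TPM with si-NC against 85.89, 86.31 and 83.57 TPM with si-circ_63706. Its groups overlapped through si-circ_63706 replicate 3. Its log2 fold change was 0.04 (SE 0.0414, limma adjusted p = 0.510) on the deposited scale and 0.20 (adjusted p = 0.0233) after centring.

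SNHG1, SNHG8 and SNHG12 were called under neither scaling. SNHG1 (ENSG00000255717, chr11:62851988-62855914, minus strand), which holds a run of C/D box snoRNAs from SNORD22 to SNORD30, had 71.13 and 71.84 TPM with si-NC against 64.31, 70.66 and 70.51 TPM with si-circ_63706. Only si-circ_63706 replicate 1 was clearly lower, although the groups did not overlap. Its log2 fold change was −0.06 (SE 0.0549, limma adjusted p = 0.399), and 0.10 (adjusted p = 0.0999) after centring. SNHG8 (ENSG00000269893, chr4:118278709-118279823, plus strand), the host of the H/ACA snoRNA SNORA24, had 28.85 and 29.68 TPM with si-NC against 28.07, 27.45 and 28.90 TPM with si-circ_63706. Its groups overlapped by 1 library. The log2 fold change of SNHG8 was −0.05 (SE 0.0462, limma adjusted p = 0.379), and 0.10 (adjusted p = 0.0962) after centring. SNHG12 (ENSG00000197989, chr1:28578538-28583132, minus strand), which holds SNORA61, SNORA44, SNORA16A and SNORD99, had 21.24 and 22.38 TPM with si-NC against 20.45, 20.73 and 24.10 TPM with si-circ_63706. The si-circ_63706 libraries lay on both sides of the si-NC libraries. Its log2 fold change was −0.01 (SE 0.0789, limma adjusted p = 0.954) and turned to 0.15 (adjusted p = 0.114) after centring. A p above the threshold does not show that these levels were equal.

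The snoRNAs carried by the hosts were mostly listed at 0, and 1 longer snoRNA was higher with si-circ_63706. GENCODE 29 places 26 snoRNA genes inside 9 of the hosts on the same strand, and those of GAS5 are not analysed here. All 14 of at most 100 bases, which are C/D box snoRNAs by name, were listed at 0 TPM in every library, and so were all 385 snoRNA and small Cajal body RNA genes of that length in the whole table. Of the 12 longer ones 10 were above 0 in some library, beside 186 of 604 in the whole table. The value of SNORD1A, SNORD1B and SNORD1C, the snoRNAs of SNHG16, was therefore 0 in all libraries and gives no information on their level. Of the 9 tested resident snoRNAs 1 was called higher and 0 lower, beside 4.16% and 35.4% of all tested genes. Their median log2 fold change was 0.84, against −0.16 for all tested genes, and 0.997 after centring. Except for SNORA61 and a SNORA17B record, each of them was listed at 0 in some library, so this median is uncertain.

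The snoRNA called higher was SNORA61 (ENSG00000278274), an H/ACA box snoRNA of 130 bases at chr1:28579764-28579893 on the minus strand, inside SNHG12. Its sequence is shown with the ACA box, which ends 3 bases before the 3′ end, in capitals.
SNORA61: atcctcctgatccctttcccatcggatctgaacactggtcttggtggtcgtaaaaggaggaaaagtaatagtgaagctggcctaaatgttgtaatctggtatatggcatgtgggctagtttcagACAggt
SNORA61 had 76.92 and 84.71 TPM with si-NC against 239.70, 141.17 and 155.75 TPM with si-circ_63706. Every si-circ_63706 library was above both si-NC libraries, and replicate 1 was by far the highest. The means were 80.8 ± 5.51 TPM (SD, n = 2) and 179 ± 53.2 TPM (SD, n = 3). The log2 fold change was 1.10 (SE 0.212, limma adjusted p = 0.00916), and 1.26 (adjusted p = 0.0135) after centring. Without si-circ_63706 replicate 1 the log2 fold change was 0.87 (adjusted p = 0.00312), and the call was lost without si-NC replicate 1 (adjusted p = 0.0615) and with no minimum TPM (adjusted p = 0.0647). The ratio of SNORA61 to SNHG12 was 3.62 and 3.79 with si-NC and 11.7, 6.81 and 6.46 with si-circ_63706, with no overlap. The difference between the changes of the snoRNA and its host was not tested. In 5 annotated SNHG12 transcripts an exon covers part of the snoRNA, so reads there may be divided between the host and the snoRNA.

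**Figure D4:**
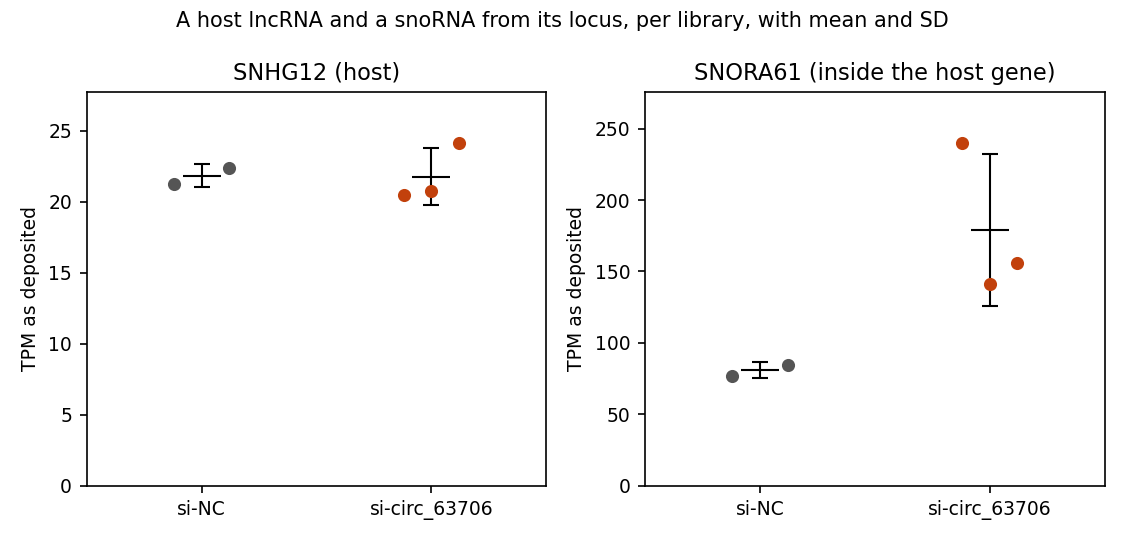
TPM as deposited (y axis, from 0) of SNHG12 (left) and of SNORA61, which lies inside it (right), by group, with 1 point per library, the mean as a short bar and 1 SD as whiskers. The SNHG12 groups overlap between 20.45 and 24.10 TPM, while SNORA61 goes from 76.92 and 84.71 TPM with si-NC to between 141.17 and 239.70 TPM with si-circ_63706.

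The other tested residents were scattered or near 0 and none passed the test. SNORA17B in SNHG7, the other abundant resident, had 143.06 and 153.17 TPM with si-NC against 189.89, 165.54 and 115.06 TPM with si-circ_63706 (fitted log2 fold change 0.05, SE 0.194, limma adjusted p = 0.848, and 0.21 with adjusted p = 0.509 after centring). Its si-circ_63706 libraries lay on both sides of the si-NC libraries. The table lists a near-identical second SNORA17B record (ENSG00000276161) at 0 TPM in all libraries but 1, where it had 22.42 TPM, so the division of reads between the records is uncertain. SNORA44 in SNHG12 was at 0 TPM in each si-NC library and in si-circ_63706 replicate 3. It had 34.46 and 16.30 TPM in the other si-circ_63706 libraries (log2 fold change 3.09, SE 1.39, limma adjusted p = 0.120). SNORD22 in SNHG1 has a pair of records at separate places in the gene (chr11:62852910-62853035 and chr11:62854161-62854285). The first of these, ENSG00000277194, had 11.76 and 17.76 TPM with si-NC against 8.58, 0 and 0 TPM with si-circ_63706. Its log2 fold change was −2.86 (SE 0.969, limma adjusted p = 0.0561), and −2.71 (adjusted p = 0.101) after centring. For the other record, ENSG00000278527, the values were 0 and 20.44 TPM with si-NC against 5.62, 0 and 6.80 TPM with si-circ_63706. The log2 fold change of that record was −0.31 (SE 1.40, limma adjusted p = 0.873). SNORA24 in SNHG8 and SNORA9 in SNHG15 stayed below 10 TPM in every library, each listed at 0 in at least 1.

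Reads from genes on the opposite strand could enter some host values, because it is not given in the sources used here whether strand was used in counting. Genes with at least 1 TPM overlap the span of 4 hosts from the other strand. FAM69B shares 2685 bases with the SNHG7 span and had 2.09 and 1.77 TPM with si-NC against 1.21, 1.45 and 1.32 TPM with si-circ_63706 (fitted log2 fold change −0.33, limma adjusted p = 0.0305). After centring its call was lost (−0.17, adjusted p = 0.202), as it was without each of 4 libraries in turn. Both FAM69B and SNHG7 were lower in every si-circ_63706 library, and the part of FAM69B in the SNHG7 values was not tested. ZBTB37 shares 801 bases with GAS5 and had 2.16 to 2.65 TPM (log2 fold change 0.13, adjusted p = 0.238 in limma, and 0.29 with adjusted p = 0.0310 after centring), and GAS5-AS1 shares 42 bases and stayed between 1.08 and 1.54 TPM, both far under GAS5. ZNFX1 shares 249 bases with ZFAS1 (6.77 to 7.88 TPM), and TRNAU1AP shares 8 bases with SNHG12 (7.89 to 10.59 TPM). Apart from resident snoRNAs, no gene with a mean of at least 1 TPM overlaps SNHG16 or SNHG15 on either strand.

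Among other snoRNA host long non-coding RNAs, SNHG21, SNHG10 and SNHG32 fell under both scalings. Of a list of 22 such genes 18 were tested, 0 were called higher and 4 lower, beside 4.16% and 35.4% of all tested genes, with a median log2 fold change of −0.13. After centring 1 was called higher and 3 lower, beside 13.1% and 13.7%. SNHG21 had the lowest fold change, with 6.04 and 5.84 TPM with si-NC against 3.23, 3.69 and 4.39 TPM with si-circ_63706 (fitted log2 fold change −0.55, limma adjusted p = 0.00897, and −0.39 with adjusted p = 0.0233 after centring). SNHG10, the host of the small Cajal body RNA SCARNA13, fell by 0.38 on the log2 scale (adjusted p = 0.00305 in limma), and by 0.22 after centring (adjusted p = 0.0228). SNHG32, listed as C6orf48, fell by 0.32 (limma adjusted p = 0.00739) from 47.58 and 50.32 TPM to 36.80, 39.69 and 40.53 TPM, and by 0.16 after centring (adjusted p = 0.0280). On the deposited scale SNHG21 and SNHG32 lost the call without si-NC replicate 2, and SNHG21 also without si-NC replicate 1. SNHG29, listed as LRRC75A-AS1, was the most abundant of all with 201.03 and 202.09 TPM with si-NC against 168.48, 180.00 and 182.41 TPM with si-circ_63706 (fitted log2 fold change −0.19, adjusted p = 0.0249 in limma). After centring its log2 fold change was −0.03 (adjusted p = 0.491). The deposited-scale call of SNHG29 was lost when either si-NC library or si-circ_63706 replicate 2 was left out. SNHG3 had 55.68 and 60.97 TPM with si-NC against 51.64, 54.19 and 51.32 TPM with si-circ_63706 (limma adjusted p = 0.0704, and 0.932 after centring).

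Protein-coding genes that carry snoRNAs in their introns were listed for comparison, and 32 of the 33 hold a snoRNA in GENCODE 29. By limma 2 of the 33 were called higher and 10 lower, beside 4.16% and 35.4% of all tested genes, with a median log2 fold change of −0.09. After centring 9 were called higher and 5 lower, beside 13.1% and 13.7%. The lowest were SNRPB, a core protein of the spliceosomal snRNPs, at −0.51 (adjusted p = 0.00138 in limma), and RCC1, the nucleotide exchange factor of the Ran GTPase, at −0.46 (adjusted p = 0.00183 in limma). After centring they were at −0.35 and −0.30 (adjusted p = 0.00221 and 0.00843). SNRPB went from 111.16 and 111.39 TPM with si-NC to 74.25, 80.04 and 79.31 TPM with si-circ_63706. Higher were PABPC4, a cytoplasmic poly(A) binding protein, at 0.33 (adjusted p = 0.00250 in limma), and EEF2, the elongation factor that moves the ribosome along the message, at 0.29 (adjusted p = 0.00564 in limma). After centring these were at 0.48 and 0.45 (adjusted p = 0.00162 and 0.000880), and the deposited-scale call of EEF2 was lost without si-NC replicate 1. Of the most abundant, the chaperone HSPA8 fell by 0.31 on the log2 scale (adjusted p = 0.00434 in limma), and by 0.15 after centring (adjusted p = 0.0122). RACK1, a protein of the small ribosomal subunit listed as GNB2L1, was at −0.16 (adjusted p = 0.0694 in limma) and at −0.00 after centring (adjusted p = 0.982).

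Among the proteins that assemble on snoRNAs, RUVBL2 fell under both scalings. Of 16 snoRNP proteins and assembly factors 8 were called lower and 0 higher (median −0.18), beside 35.4% and 4.16% of all tested genes (median −0.16). After centring 1 was called lower and 1 higher (median −0.02), beside 13.7% and 13.1%. FBL, the methyltransferase of the C/D box particles, was at −0.46 (adjusted p = 0.0230 in limma) with si-NC libraries far apart at 52.06 and 69.35 TPM, and its call was lost without si-NC replicate 2 (log2 fold change −0.26) or without either si-circ_63706 replicate 2 or 3, and after centring (−0.31, adjusted p = 0.123). RUVBL2, an ATPase of snoRNP assembly, went from 137.27 and 134.46 TPM to 97.75, 101.07 and 102.46 TPM (log2 fold change −0.43, adjusted p = 0.00145 in limma) and was the gene still called lower after centring (−0.27, adjusted p = 0.00295). NOP56 of the C/D box particles and NOP10 of the H/ACA box particles fell by 0.23 and 0.19 on the deposited scale (adjusted p = 0.0139 and 0.0233 in limma). After centring neither was called (−0.07 and −0.03, adjusted p = 0.164 and 0.517). Both deposited-scale calls were lost when either si-NC library was left out, and that of NOP56 also without si-circ_63706 replicate 2. NHP2, also of the H/ACA box particles, was at −0.11 (adjusted p = 0.0765 in limma) and at 0.04 after centring (adjusted p = 0.354).

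Of the NMD factors, which act on many spliced host RNAs, SMG5 was 1 of 2 called lower under both scalings. PNRC2 was called higher under both. Of 17 listed 7 were called lower and 1 higher (median −0.17), beside 35.4% and 4.16% of all tested genes, and after centring 2 were called lower and 3 higher, beside 13.7% and 13.1%. SMG5, an adaptor for dephosphorylation and decay in NMD, fell by 0.47 on the log2 scale (adjusted p = 0.00168 in limma), and by 0.31 after centring (adjusted p = 0.00885). UPF1, the central helicase of NMD, fell by 0.38 on the deposited scale (adjusted p = 0.00836 in limma) and was not called after centring (−0.22, adjusted p = 0.0623) or without si-NC replicate 1. UPF3B, at −0.22 (adjusted p = 0.0485 in limma), was not called after centring (−0.06, adjusted p = 0.580) and lost its call without each of the 5 libraries in turn. PNRC2, a decapping cofactor, went from 67.05 and 71.35 TPM with si-NC to 86.14, 96.40 and 104.43 TPM with si-circ_63706, which gave a log2 fold change of 0.46 (adjusted p = 0.00762 in limma) and of 0.62 after centring (adjusted p = 0.00252). Its deposited-scale call was lost without si-NC replicate 1. RBM8A of the exon junction complex was at 0.03 (adjusted p = 0.617 in limma) and was called higher after centring (0.19, adjusted p = 0.0117).

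Among 18 translation genes with a known TOP start, 5 were called lower and 2 higher (median −0.08), beside 35.4% and 4.16% of all tested genes. After centring 0 were called lower and 7 higher (median 0.07), beside 13.7% and 13.1%. EIF3F, a translation initiation factor subunit, and EEF1A1, the elongation factor that brings aminoacyl-tRNA to the ribosome, fell by 0.27 and 0.26 on the deposited scale (adjusted p = 0.0125 and 0.0147 in limma). After centring neither was called (−0.12 and −0.10, adjusted p = 0.107 and 0.0722). Both deposited-scale calls were lost when either si-NC library was left out, and that of EEF1A1 also without si-circ_63706 replicate 2. EIF3E and EEF2 rose by 0.25 and 0.29 on the deposited scale (adjusted p = 0.0314 and 0.00564 in limma). After centring they rose by 0.40 and 0.45 (adjusted p = 0.00347 and 0.000880 in limma). The deposited-scale call of EIF3E was lost when either si-NC library, si-circ_63706 replicate 2 or si-circ_63706 replicate 3 was left out. That call was also lost with no minimum TPM, with no trend and with a replicate block in the fit. The 10 host RNAs had a centred median of 0.06, and 2 of 10 were called higher after centring. Each list shares all libraries with the others, and no difference between lists was tested. The lists also share genes, so their counts are not separate. EEF1B2, EEF2, EIF4A2, RACK1 and TPT1 are in both the TOP and the protein-coding host lists. NOP56, NOP58 and DKC1 are in both the protein-coding host and the snoRNP lists. Of the 22 genes outside the 10 hosts that are called here by name in the list, snoRNA and overlap results, 7 were called on the deposited scale without each library in turn (SNHG10, SNRPB, RCC1, PABPC4, HSPA8, RUVBL2 and SMG5).

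The host RNAs were also searched for the 7-base sites that pair with bases 2 to 8 of the guide strand of each siRNA. TGAAGGA, the site of siRNA 1, was found in at least 1 transcript of GAS5, SNHG1, SNHG5 and SNHG16, that is 4 of 10 hosts beside 51.0% of all tested genes. It was present in 6 of the 8 annotated SNHG16 transcripts, 22 of 25 of SNHG1, 6 of 29 of GAS5 and 4 of 23 of SNHG5. CTGAAGG, the site of siRNA 2, was found in SNHG7 alone, beside 46.4% of all tested genes. Of the hosts with the first site, SNHG16 was called lower under both scalings, and SNHG1 and SNHG5 were called under neither. GAS5 was called higher after centring only. SNHG15, called lower on the deposited scale only, held neither site. A match is a description of the sequence only, and whether either siRNA acted on it was not tested.

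The mean profile of the 10 host RNAs over the 5 libraries, each on log2(TPM + 1) and centred on its own mean, was compared with those of 4852 other genes with a mean of at least 10 TPM. The closest were RPE (Pearson's r = 0.9996), EIF1AX (0.999), TUSC3 (0.999), ZFP91 (0.998) and MYL6B (0.998). These are correlations over 5 libraries that share 1 scaling each, and with so few points high values are easily reached. RPE, an enzyme of the pentose phosphate pathway, had 23.79 and 25.42 TPM with si-NC against 19.68, 21.16 and 22.16 TPM with si-circ_63706. Like the summed host RNAs it was highest in si-NC replicate 2 and lowest in si-circ_63706 replicate 1.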

How the data were processed

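RNA of 5 DAOY libraries was analysed from 1 table that the authors deposited, in TPM rounded to 2 decimals, with identifiers, symbols and biotypes of 60504 genes. The submitters' processing notes name cutadapt 2.3, STAR 2.7.0d, RSEM 1.3.1 and the build hg38. The annotation, the strand setting and the read depth are not given in the sources used here. TPM sums to 1000000 in each library, so a rise of abundant RNAs lowers all others, and no counting interval can be given. Reads were not processed again.

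Libraries were grouped by their labels. Genes with a mean of at least 1 TPM (12710) were fitted with limma 3.58.1 in R 4.3.3 on log2(TPM + 1), with no covariate, with variances moderated along a trend in mean expression (empirical Bayes), and p-values were adjusted by Benjamini-Hochberg over all of these genes (two-sided, threshold 0.05). The offset understates changes of low genes. In the centred fit, the median log2 ratio of each library to the mean of all, over genes with at least 10 TPM, was subtracted. The script was tested on simulated data. The members and lists were chosen with earlier results of these data known, from general knowledge, and support nothing by their choice. Named were all 10 members; of each list the 2 lowest and 2 highest fold changes among called genes and the 2 highest means; per host the 2 most abundant resident snoRNAs; overlapping genes of at least 1 TPM; and the 5 genes of closest profile. Positions, transcripts and sequences came from GENCODE 29 on GRCh38, in which 56996 table genes were found. No sequence of SNHG6 is shown. Alternatives were another offset (0.1), no minimum or one of 5 TPM, centring, quantile normalization, scaling to the protein-coding total, no trend, a replicate block and leaving out each library. Summaries and plots used Python 3.11.15 (pandas 2.3.3, numpy 2.4.6, matplotlib 3.10.9).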

Additional observations from a re-analysis of the deposited data

How the results depend on the processing

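Of the 10 host RNAs, SNHG16 was called lower under all 13 alternatives, while the other calls depended on scaling. Centring, quantile normalization and scaling to the protein-coding total each called 2 host RNAs higher (GAS5 and SNHG6) and 1 lower, and turned their median log2 fold change to 0.0574, 0.0431 and 0.0498. The SNHG15 call was lost under the same 3 (adjusted p 0.187, 0.220 and 0.120 in limma). These 3 settings differ from the reported one by construction, since they remove the shared shift of the TPM scale. Leaving out 1 library gave 0 host RNAs higher and 1 to 3 lower, and a median from −0.13 to −0.07. The libraries whose removal lowered the host count to 1 were the si-NC replicates, and without si-circ_63706 replicate 3 it rose through ZFAS1. Where an arm was left with 1 si-NC library, that library was assumed to vary like the others.

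For all tested genes, the reported 529 higher and 4504 lower became 1671 and 1737 with centring, 1584 and 1682 with quantile normalization, 1436 and 2121 with protein-coding scaling, and 292 and 2597 with no minimum TPM, and ranged over 208 to 578 and 1960 to 4289 when 1 library was left out.

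The lists changed as follows under centring, quantile normalization and protein-coding scaling, in that order. Other host RNAs called higher were 1, 1 and 1. Protein-coding hosts were 9, 7 and 9 higher and 5, 5 and 5 lower. snoRNP proteins were 1, 1 and 1 higher and 1, 1 and 2 lower. NMD factors were 3, 3 and 3 higher and 2, 2 and 3 lower. TOP translation genes were 7, 4 and 7 higher and 0, 0 and 1 lower. With no minimum TPM, the lower calls were 2 other hosts, 2 snoRNP proteins, 3 NMD factors and 0 TOP genes, and the higher calls were 1 TOP gene and 0 resident snoRNAs. A minimum of 5 TPM gave 4 lower NMD factors and 1 lower resident snoRNA, and moderation without a trend gave 1 higher and 3 lower TOP genes. Leaving out 1 library gave 1 to 5 lower other hosts, 1 to 4 higher and 5 to 12 lower protein-coding hosts, 1 to 8 lower snoRNP proteins, 0 to 1 higher and 2 to 8 lower NMD factors, 0 to 4 higher and 0 to 7 lower TOP genes, and 0 to 2 higher and 0 to 1 lower resident snoRNAs. Of the 22 called genes named besides the hosts, 13 lost the call without si-NC replicate 1, 11 without si-NC replicate 2, and 2, 6 and 4 without si-circ_63706 replicates 1, 2 and 3. The cause was not tested.

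Replicate numbers 1 and 2 occur in both groups, but nothing in the labels says that a number marks a shared culture. Same-numbered libraries deviated together with r = 0.137 and 0.230 over genes, from only 2 pairs. With the replicate block, which leaves si-circ_63706 replicate 3 without a partner, 325 genes were called higher and 3560 lower, ZFAS1 was also called lower (−0.24, adjusted p = 0.0357), NMD factors gave 4 lower calls, TOP genes 1 higher and 2 lower, and resident snoRNAs 2 higher.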
